A study of Mus musculus with 6 samples.

Results

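The expression of hair bundle and mechanotransduction genes was compared between the postnatal day 3 (P3) and the adult cochlear sensory epithelia (CSE). No difference was detected for the 6 genes that could be tested, of which Cdh23 and Espn lay close to background. The genes considered were Cdh23, Pcdh15, Tmc1, Tmie, Lhfpl5, Loxhd1, Ush1c, Espn and Cib2, named for their place in the stereocilia, and all probe sets that the array annotation gives to a single one of them were used. Of these 9 genes 7 had at least 1 probe set, 14 probe sets in all, out of 18193 genes with a probe set of their own on the array. Loxhd1, whose product lies at the stereocilia membrane, and Cib2, a calcium and integrin binding protein that acts with the transduction channel, have no probe set listed in the annotation used and are not analysed here.

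The CSE were dissected from Swiss mice (Swiss Webster in the study's methods) at P3 and at 8 weeks, without any treatment or mutant allele at either stage. Each stage was measured on 3 Affymetrix arrays, and each array held RNA from 1 pool of 20 mice, so that 60 mice stood behind each stage and the 3 pools of a stage came from separate dissections. By the study's description, the P3 tissue also contained the greater and lesser epithelial ridges, and the adult tissue the inner sulcus and the interdental cells, so the cells around the hair cells were not the same at the 2 stages. In pooled tissue of this kind, fewer hair cells and less RNA per hair cell cannot be told apart.

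A hair cell converts sound into an electrical signal at its hair bundle, a staircase of actin-filled stereocilia. Fine extracellular threads, the tip links, join each stereocilium to its taller neighbour and pull on the transduction channel when the bundle is deflected. Cdh23 and Pcdh15 encode the upper and the lower part of the tip link, Tmc1 a pore-forming subunit of the channel, and Tmie and Lhfpl5 membrane proteins that bind the channel to the tip link. Ush1c encodes harmonin, a scaffold that anchors the upper end of the tip link, and Espn encodes espin, which bundles the actin of the stereocilia. Loss of these genes causes deafness in mice and, for most of them, in humans.

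The signals are MAS5.0 intensities, and the background level of an array was taken as the 90th percentile over 81 receptor probe sets (olfactory, vomeronasal or bitter taste). At P3 this level was 33.6, 9.30 and 6.39 for replicates 1, 2 and 3, and in the adult it was 16.5, 9.07 and 8.78. P3 replicate 1 stood apart, with a 3′ to 5′ signal ratio of 82.0 for the Gapdh control probe sets, against 0.707 to 2.07 on the other arrays. A probe set was tested if at least 3 of the 6 arrays had a signal above background, which held for 64.3% of all probe sets. Of the 14 probe sets of the hair bundle genes 7 passed, 4 were above background on all 6 arrays and 4 on no array.

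**Figure D1:**
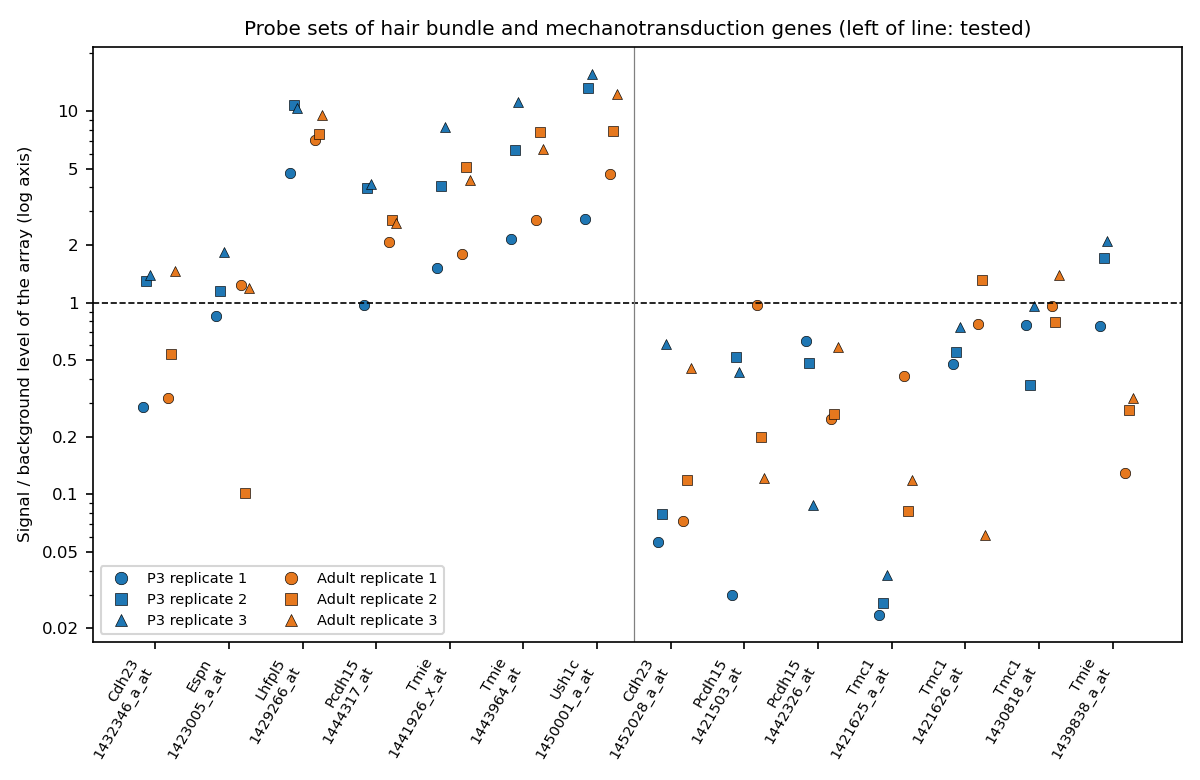
Signal divided by the background level of the same array (vertical log axis, dashed line at 1) for each of the 14 probe sets of 7 hair bundle and mechanotransduction genes (horizontal axis), 1 point per array, blue for P3 and orange for the adult. The 7 probe sets left of the vertical line were tested, and most points right of it lie below the background level.

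Expression of Lhfpl5, Ush1c, Tmie and Pcdh15 could be measured on 5 or 6 of the 6 arrays. The sequences before their transcription starts are shown because these 4 genes carry the comparison. They are the 250 bases upstream of 1 annotated start per gene in RefSeq, build GRCm38.p6, written 5′ to 3′ on the strand of the gene. For Ush1c and Tmie that start is the outer end of the gene. The windows of Lhfpl5 and Pcdh15 lie inside the gene span, which begins at 28575369 and 73096277, so other starts exist upstream. Every match to the E-box letters CAGNTG or their reverse complement CANCTG is in capitals. E-boxes are bound by basic helix-loop-helix factors, the family of Atoh1, which drives hair cell formation.
Lhfpl5, chr17:28575469-28575718, plus strand: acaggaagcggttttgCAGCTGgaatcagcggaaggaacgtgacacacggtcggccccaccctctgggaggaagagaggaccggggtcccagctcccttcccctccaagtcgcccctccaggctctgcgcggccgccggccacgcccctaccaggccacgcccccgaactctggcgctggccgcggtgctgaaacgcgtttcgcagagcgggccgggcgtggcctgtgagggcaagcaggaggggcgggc
Ush1c, chr7:46238491-46238740, minus strand: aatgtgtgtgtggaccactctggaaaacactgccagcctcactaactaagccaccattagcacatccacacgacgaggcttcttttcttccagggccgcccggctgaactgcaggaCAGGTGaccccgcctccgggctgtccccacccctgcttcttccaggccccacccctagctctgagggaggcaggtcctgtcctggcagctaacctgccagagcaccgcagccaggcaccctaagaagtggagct
Tmie, chr9:110880074-110880323, minus strand: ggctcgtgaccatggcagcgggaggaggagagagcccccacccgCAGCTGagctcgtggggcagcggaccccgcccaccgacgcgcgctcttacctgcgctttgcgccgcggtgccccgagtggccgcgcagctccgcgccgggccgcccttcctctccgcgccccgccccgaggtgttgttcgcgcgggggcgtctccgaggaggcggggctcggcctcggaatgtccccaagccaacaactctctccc
Pcdh15, chr10:73821617-73821866, plus strand: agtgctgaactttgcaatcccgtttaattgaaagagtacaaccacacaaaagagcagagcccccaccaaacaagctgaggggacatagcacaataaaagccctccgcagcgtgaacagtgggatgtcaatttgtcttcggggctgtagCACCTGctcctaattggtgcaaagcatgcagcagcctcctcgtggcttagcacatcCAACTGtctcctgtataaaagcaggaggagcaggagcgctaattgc
Pcdh15 held 2 such matches and Lhfpl5, Ush1c and Tmie 1 each. A match was found in 44.8% of all 32851 promoter windows of this length, and in 6 of the 10 windows of the 8 hair bundle genes with an entry, so these letters are common and their presence is a description only. The windows of Tmie and Lhfpl5 were rich in G and C, at 74.8% and 70.8%, while that of Pcdh15 was at 50.4%, near the median of all windows, 52.4%.

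None of the 6 hair bundle genes tested was called between the stages, where a call required a difference of 2-fold or more with an adjusted p below 0.05 (limma, Benjamini-Hochberg over 28967 probe sets). Over all probe sets 7.28% were called, 3.89% with more signal at P3 and 3.39% with more in the adult. A count of 0 among 6 genes does not set them apart from that share. No hair bundle gene reached an unadjusted limma p under 0.05 either, against 23.7% of all probe sets tested. SAM, the test named in the study, was run here on log2 signals after the background filter, whereas the study filtered by detection calls. It called 2704 probe sets and no hair bundle gene. The log2 fold changes of the 6 genes, adult minus P3, had a median of -0.28 and ran from -1.39 to -0.21, against a median of 0.04 over all probe sets. All 6 estimates were below 0 on the deposited scale, but the sign of Cdh23 turned with array weights and that of Lhfpl5 without P3 replicate 1, and each interval included 0.

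Lhfpl5 had signals of 160, 99.7 and 66.0 at P3 (replicates 1, 2 and 3, in this order throughout) and of 117, 68.6 and 84.0 in the adult. The highest and the lowest value were both found at P3, and the adult values lay within the P3 range. The log2 fold change was -0.21 (SE 0.38, 95% interval -1.08 to 0.65, limma adjusted p = 0.776). The direction rested on P3 replicate 1, without which the log2 fold change was 0.11 (adjusted p = 0.850).

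Ush1c gave signals of 92.3, 122 and 99.7 at P3 and of 78.1, 71.1 and 108 in the adult. Adult replicates 1 and 2 lay below all P3 arrays, while adult replicate 3 lay above P3 replicates 1 and 3, so the stages overlapped. Its mean signal was 105 ± 15.6 at P3 and 85.8 ± 19.7 in the adult (SD, n = 3). The log2 fold change was -0.30 (SE 0.28, 95% interval -0.94 to 0.34, limma adjusted p = 0.566).

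Pcdh15 was measured at 1 of its 3 probe sets, 1444317_at, with signals of 32.6, 36.8 and 26.7 at P3 and of 34.5, 24.4 and 23.0 in the adult. P3 replicate 1 was just under the background level of its own array. The log2 fold change was -0.24 (SE 0.41, 95% interval -1.18 to 0.69, limma adjusted p = 0.765). At the other probe sets of Pcdh15, 1421503_at and 1442326_at, no array was above background, with the highest signals at 16.0 and 21.2.

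Tmie was measured at 2 of its 3 probe sets, which gave like results. The brighter, 1443964_at, had signals of 72.7, 58.4 and 71.0 at P3 and of 44.4, 70.6 and 55.6 in the adult. P3 and adult arrays overlapped, and adult replicate 1 was the lowest. The log2 fold change was -0.26 (SE 0.31, 95% interval -0.98 to 0.45, limma adjusted p = 0.661), and that of 1441926_x_at was -0.31 (SE 0.36, adjusted p = 0.657). The ratio of the signals of these probe sets stayed between 1.35 and 1.55 on the 6 arrays, and the suffix of the latter marks probes that may also match other sequences.

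The third probe set of Tmie, 1439838_a_at, did not follow the others. It had signals of 25.6, 15.8 and 13.4 at P3 and of 2.14, 2.50 and 2.80 in the adult, and it was the only one of the 14 probe sets whose stages did not overlap. Such separation was found in 31.2% of all probe sets tested. P3 replicates 2 and 3 were above background, P3 replicate 1 and all adult arrays were not, and the probe set was therefore not among those tested. The P3 signals above background, 15.8 and 13.4, were below the background level of adult replicate 1, 16.5, so no lower bound on the fold is given. When every probe set above background on at least 1 array was tested, its log2 fold change was -2.83 (SE 0.80, limma adjusted p = 0.0764), and without any filter the adjusted p was 0.0959, so it was not called. The ratio of the signal of 1443964_at to that of 1439838_a_at was 2.84 to 5.31 at P3 and 19.9 to 28.2 in the adult. The adult ratios rest on signals below background. With dim signals raised to background the ratios were 2.16 to 5.31 and 2.69 to 7.78 and overlapped. Those of the adult arrays and of P3 replicate 1 are then lower limits set by the background. Their overlap therefore does not show whether the ratio differed between the stages. Which transcripts of Tmie each probe set detects is not given in the sources used here.

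**Figure D2:**
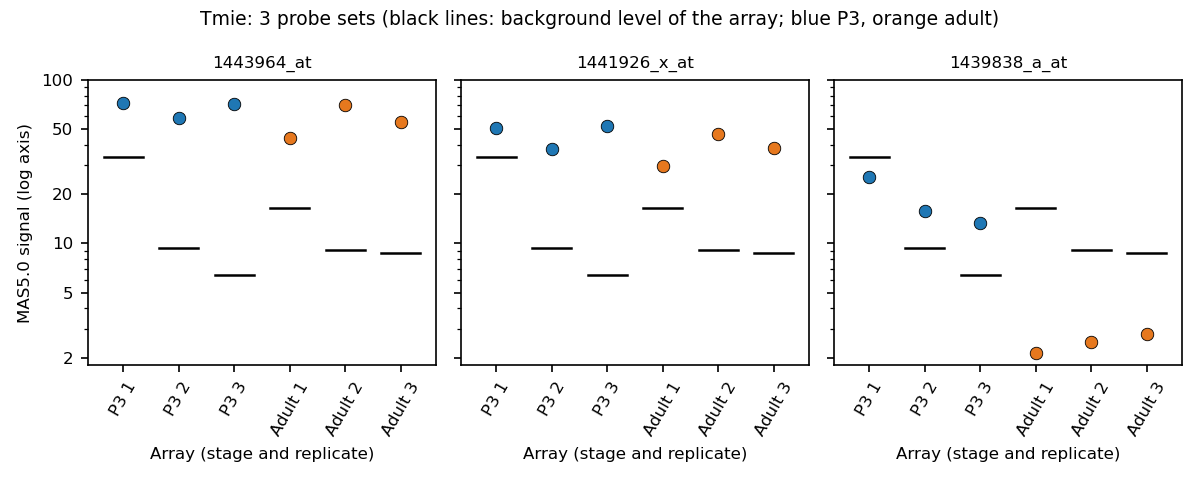
MAS5.0 signal (vertical log axis) of the 3 probe sets of Tmie on each array (horizontal axis, blue for P3 and orange for the adult), with the background level of the array as a black line. The stages overlap at 1443964_at and 1441926_x_at, whereas at 1439838_a_at the adult signals of 2.14 to 2.80 all lie below background and the P3 signals lie between 13.4 and 25.6.

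For Lhfpl5, Ush1c, Tmie and Pcdh15 the 95% intervals give a range for the difference. They hold for the brightest probe set, all 6 arrays and the deposited scale. The third probe set of Tmie, 1439838_a_at, is not covered by them, and its log2 fold change of -2.83 lay outside the interval of 1443964_at. The largest fold inside the interval of any of the 4 genes was 2.26 in favour of P3 and 1.62 in favour of the adult, both for Pcdh15. The smallest such limits were 1.92 and 1.27, both for Ush1c. The limits also moved with the setting. In log2 units the upper limit of Lhfpl5 went from 0.65 to 0.88 without P3 replicate 1. That of Pcdh15 went from 0.69 to 1.00 with arrays scaled to hair cell markers. A miss of the threshold does not show equal expression, and smaller differences than these limits remained possible for each gene.

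Cdh23 and Espn were tested but lay close to background. Cdh23 had signals of 9.66, 12.1 and 8.89 at P3 and of 5.27, 4.90 and 12.8 in the adult at 1432346_a_at. Only P3 replicates 2 and 3 and adult replicate 3 were above background, by 1.30 to 1.46 times. The log2 fold change was -0.55 with a 95% interval from -2.29 to 1.19 (SE 0.76, limma adjusted p = 0.709), which allows up to 4.88-fold more at P3 and 2.28-fold more in the adult. The other probe set of Cdh23, 1452028_a_at, was below background on every array, with signals of 0.733 to 3.995.

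Espn, measured at 1423005_a_at, had signals of 28.8, 10.7 and 11.8 at P3 and of 20.5, 0.925 and 10.5 in the adult. Adult replicate 2 was far below the others, and no array exceeded its background by more than 1.85 times. The log2 fold change of -1.39 had a 95% interval from -4.08 to 1.29 (SE 1.18, limma adjusted p = 0.521), and it was -0.06 without adult replicate 2. A difference in Espn was therefore not detected, and with so wide an interval the values do not show equal expression.

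Tmc1, the pore subunit of the mature transduction channel, could not be compared. Each of its 3 probe sets exceeded background on at most 1 array. At 1421626_at the signals were 16.1, 5.15 and 4.76 at P3 and 12.7, 11.9 and 0.540 in the adult, and adult replicate 2 alone was above background. At 1430818_at they were 25.8, 3.46 and 6.17 at P3 and 15.9, 7.21 and 12.2 in the adult, and adult replicate 3 alone was above background. At 1421625_a_at all 6 signals, from 0.242 to 6.86, were below it. When all probe sets were fitted without a filter, the limma adjusted p values were 0.843 for 1421626_at, 0.870 for 1430818_at and 0.408 for 1421625_a_at. No difference in Tmc1 was detected, and signals this close to background do not show equal expression.

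**Figure D3:**
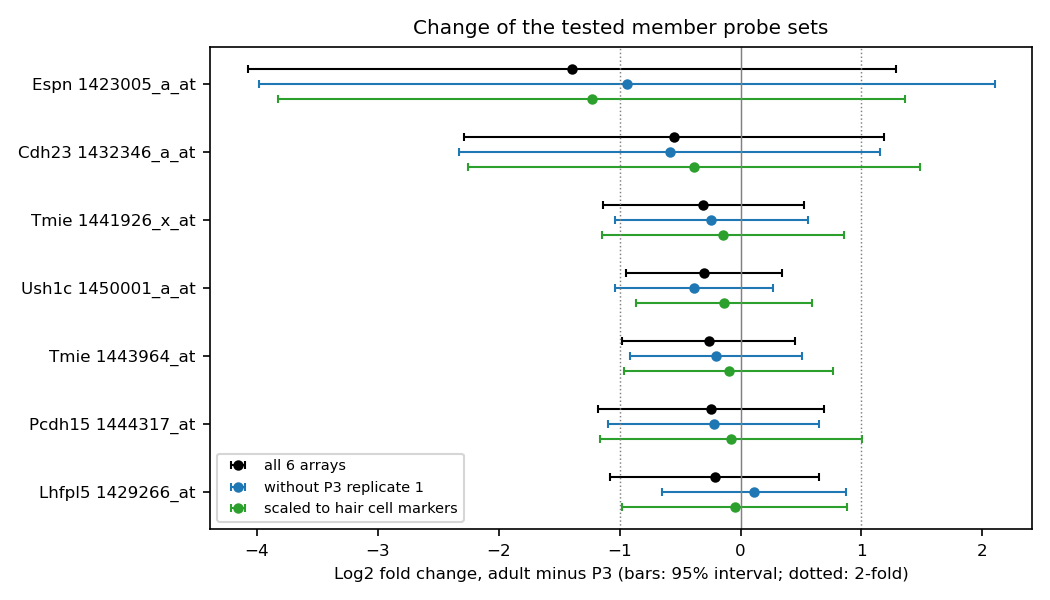
Horizontal axis, log2 fold change (adult minus P3) of the 7 tested probe sets of 6 hair bundle genes, with 95% intervals as bars, from all 6 arrays (black), without P3 replicate 1 (blue) and with each array scaled to its hair cell markers (green). Every interval includes 0, and those of Espn and Cdh23 are the widest.

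Other genes of the hair bundle were compared to place these results. Of 17 further genes of transduction and of the links between stereocilia 10 had a probe set and 7 were measured. None of the 7 was called, and none had an unadjusted limma p under 0.05, against 7.28% and 23.7% of all probe sets tested. Their log2 fold changes ran from -1.22 to 1.67, with a median of 0.27. Tmc2, the channel subunit of immature hair cells, was below background on all 6 arrays, with signals of 0.575 to 8.80. Myo7a, the motor protein that works with harmonin at the upper tip link, had signals of 76.3, 57.1 and 50.4 at P3 and of 53.6, 52.9 and 59.9 in the adult. These overlapped, and the log2 fold change was -0.12 (limma SE 0.31 and adjusted p = 0.850). Ush1g, a partner of harmonin, has no probe set listed in the annotation used.

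Among 31 further genes of the actin core of the bundle 24 were measured, of which 2 were called higher at P3 and 1 in the adult, with a median log2 fold change of -0.06. The share called was 12.5%, against 7.28% of all probe sets. Fscn1, an actin-bundling protein found in many growing cell types, fell from signals of 5180, 2442 and 2284 at P3 to 547, 447 and 414 in the adult. The stages did not overlap, and the log2 fold change was -2.72 (limma SE 0.34 and adjusted p = 0.00366). At its 2 other tested probe sets Fscn1 gave -0.52 and -1.23 and were not called. Gpsm2, a polarity protein that sets the height and the position of the bundle, went from 158 ± 27.2 at P3 to 44.6 ± 12.6 in adult CSE (SD, n = 3). Its log2 fold change was -1.85 (limma SE 0.31 and adjusted p = 0.0105). Eps8l2, a protein of the stereocilia tips, rose from 59.0 ± 6.05 at P3 to 161 ± 30.4 (SD, n = 3), and its log2 fold change was 1.44 (limma SE 0.26 and adjusted p = 0.0158). The calls of Gpsm2 and Eps8l2 were lost with arrays scaled to the same median (adjusted p = 0.0735 and 0.131) and without adult replicate 3 (0.0598 and 0.103), and that of Eps8l2 also without P3 replicate 2 or 3 (0.0659 and 0.0516). Without P3 replicate 1, 5 genes of this list were called, and without adult replicate 3 only 1.

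**Figure D4:**
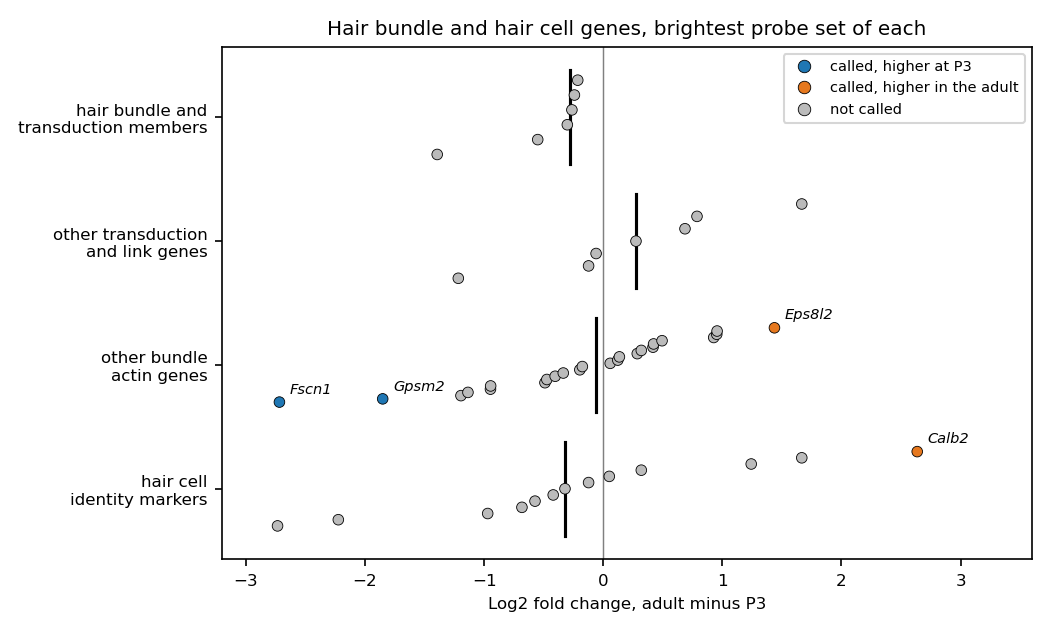
Horizontal axis, log2 fold change (adult minus P3) of the brightest tested probe set of each gene in 4 groups, with a black line at the median of the group. Blue and orange points were called higher at P3 and in the adult, grey points were not called. All 6 points of the top group are grey and lie left of 0, between -1.39 and -0.21.

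Hair cell markers had log2 fold changes in both directions, from -2.73 to 2.64. Of 18 markers 13 were measured and 1 was called, Calb2, a calcium-binding protein of hair cells and of neurons, which was higher in the adult by 2.64 log2 units (limma SE 0.53 and adjusted p = 0.0226), a call lost without adult replicate 1 or 3 (adjusted p = 0.0662 and 0.103), with arrays scaled to the same median (0.0882) and without the intensity trend (0.0773). The share of the 13 markers called, 7.69%, was near the 7.28% of all probe sets. Their median was -0.32, with 8 below and 5 above 0. The stages did not overlap for 5 of them, where 31.2% of all probe sets tested did not overlap. At an unadjusted limma p under 0.05, reached by 23.7% of all probe sets tested, there were 4, Calb2 and 3 genes named after their values were seen. Atoh1 had signals of 69.4, 21.4 and 18.4 at P3, all above background, and of 15.8, 4.25 and 1.38 in the adult, none above background, and its log2 fold change was -2.73 (limma SE 1.00 and adjusted p = 0.140). The study, which used SAM after a filter by detection calls, lists Atoh1 at the same probe set among its genes higher at P3. Chrna9, a receptor subunit of the efferent synapse, was at -2.22 and Pvalb, a calcium buffer, at 1.24 (limma adjusted p = 0.159 and 0.168). Myo6, a motor of the hair cell, had a log2 fold change of 0.32 (SE 0.43), Pou4f3, a transcription factor of hair cells, of -0.42 (SE 0.53), and Otof, of the hair cell synapse, of -0.57 (SE 0.28), with limma adjusted p of 0.696, 0.676 and 0.258. Slc26a5, the motor protein of outer hair cells, was below background on all 6 arrays, with signals of 0.375 to 7.69. The mean log2 signal of the 13 markers was 5.83 to 6.29 at P3 and 5.80 to 5.92 in the adult.

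The hair bundle genes were also compared with each array scaled to its hair cell markers, which takes the difference between the marker means of the stages, -0.16, off every log2 fold change alike. On this scale the median log2 fold change of the 6 genes was -0.12, and those of Lhfpl5, Ush1c, Tmie and Pcdh15 were -0.05, -0.14, -0.10 and -0.08. The limma adjusted p values of the 4 genes were then 0.853 to 0.962, and none was called. This scaling moved the median of all probe sets from 0.04 to 0.21. The markers themselves ran from -2.73 to 2.64, and whether their mean follows hair cell content was not tested. Myo7a, Myo6 and Strc among them are also in the lists of further hair bundle genes.

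Of the markers of other cells, 16.7% (macrophage) to 83.3% (granulocyte) were called per list, against 7.28% of all probe sets tested. In every list but the granulocyte markers, most were not called. Of 12 granulocyte markers 10 were called higher in the adult, and their summed signal was 133 to 468 at P3 and 4035 to 18259 in the adult. Of 15 neuron markers 4 were called higher in the adult and 1 at P3 (summed signal 7046 to 7723 and 10066 to 28997), and of 18 supporting cell markers 2 and 5 (19481 to 45482 and 23806 to 28552). Among erythroid, macrophage, fibrocyte and strial markers 2 of 7, 1 of 12, 2 of 12 and 2 of 11 were called higher in the adult and 0, 1, 2 and 1 at P3. The part of these other cells in the values of the hair bundle genes was not tested.

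The brightest hair bundle genes, Lhfpl5 and Ush1c, were also set against all 24713 tested probe sets of single genes by Pearson's r of log2 signal over the 6 arrays. Lhfpl5 was most like Gm13205 (r = 0.995), Frmd5 (0.994) and Nmt1 (0.991), and Ush1c most like Wsb1 (0.986), Mtmr11 (0.978) and Pradc1 (0.976). These are descriptions over 6 arrays that share their scaling, with P3 replicate 1 apart in its Gapdh control ratio. They were chosen as the highest of many values.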

How the data were processed

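RNA of 6 CSE pools, 3 per stage, was hybridized by the authors to Affymetrix Mouse Genome 430 2.0 arrays. The deposited values are linear intensities that the authors computed with MAS5.0, and their trimmed mean is close to 100 on every array. The submitters' processing notes name GCOS 1.2, and the methods another version. The deposited intensities were used without further normalization. MAS5.0 subtracts mismatch signals, so log2 values near background vary widely. Detection calls were not used here.

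An annotation of 2016 named 1 gene for 34945 of 45101 probe sets. Log2 signals were compared with limma 3.58.1 in R 4.3.3 (lmFit on stage alone over the 6 arrays, eBayes with its trend option), and SE and intervals are limma's. SAM, the test of the methods, was run as an alternative with all 20 relabellings, on the log2 signals of the probe sets tested here. The number of arrays limits the precision, and with 3 arrays per stage the smallest two-sided p of an exact permutation test is 0.1. A gene was represented by its tested probe set of highest mean signal. Alternatives covered scaling, filters, background handling, variance models, the replicate number as a block and each array left out. The procedure was tested on simulated data. Genes were named by rule (all members, called genes of the bundle and hair cell lists, chosen markers and the most alike genes), and other cell types are given by counts and sums. The members, the lists and this rule were set with earlier results of these data known.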

Additional observations from a re-analysis of the deposited data

How the results depend on the processing

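No hair bundle gene was called under any of the 20 alternatives, and none of their probe sets under those fitted by probe set, which leaves out the mean over probe sets. For most alternatives this covers only the 7 probe sets that passed the background filter. The 7 that did not pass include all those of Tmc1 and 1 of Tmie. They were fitted without a filter or, if above background on at least 1 array, with that looser filter, and none was called there. The remaining alternatives do not bear on them. All estimates of Ush1c, Tmie, Pcdh15 and Espn kept their sign, whereas Cdh23 was at 0.050 with array quality weights and Lhfpl5 at 0.11 without P3 replicate 1 (limma adjusted p = 0.944 and 0.850). With 1 array left out, log2 fold changes ran from -0.53 to 0.11 for Lhfpl5, from -2.30 to -0.06 for Espn and from -0.99 to -0.30 for Cdh23. The median of the genes was -0.12 scaled to hair cell markers, -0.16 with array weights, and -0.45 to -0.18 with 1 array left out. Requiring signal above background on all 6 arrays left no value for Pcdh15, Cdh23 and Espn, and a background at the 95th percentile left none for Espn. Depth of signal over background limits Cdh23, Espn and Tmc1.

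Probe sets called numbered 565 with arrays scaled to the same median, 908 without the intensity trend, 7592 with array weights, and 577 to 2838 with 1 array left out, against 2109. The share of calls higher at P3, 53.4%, was 36.0% scaled to hair cell markers and 42.0% with array weights. Array weights called 2 further transduction and link genes, 6 bundle actin genes, 4 hair cell markers and 55 markers of other cells, against 0, 3, 1 and 33. Scaling to the same median called 1 bundle actin gene and 0 hair cell markers, the fit without the trend 0 hair cell markers and SAM 2. With 1 array left out, bundle actin calls ran from 1 to 5 and hair cell marker calls from 0 to 1. Myo7a was at 0.041 scaled to hair cell markers and 0.10 with array weights, and ran from -0.25 to 0.046 (the latter without P3 replicate 1) with 1 array left out. Myo6 ran from -0.088 (without P3 replicate 1) to 0.69. The cause of these shifts was not tested. Deviations of arrays with the same replicate number correlated at 0.18, 0.22 and 0.08, so the numbers were not taken as pairs. With the replicate block 2649 probe sets were called and still 0 hair bundle genes.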
